A study of Mus musculus with 21 samples.

Results

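Metallothioneins and zinc handling were followed through 6 genes of splenic CD4+ T cells: the metallothioneins Mt1 and Mt2, the zinc-sensing transcription factor gene Mtf1, the zinc exporter gene Slc30a1, and the zinc importer genes Slc39a6 and Slc39a10. They were picked by name out of 15249 genes in the deposited log2 table, with their levels over all 7 groups already known, so those levels are given as a description and without p-values. All 6 had at least 10 counts over the 21 libraries. They belong to a list of 29 genes for zinc handling, whose other members are described at the end.

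The animals were Tg4 Tiger Nr4a3-Tocky mice. The Tg4 receptor is a T cell receptor transgene that recognises a peptide of myelin basic protein, Tiger reports Il10 by GFP, and Nr4a3-Tocky makes a fluorescent Timer protein that is blue when new and red when mature, so that it records receptor signalling. Every group, the control included, carried these alleles. Immunised mice were given 0.8 µg or 80 µg of the [4Y] peptide under the skin, in PBS with no adjuvant, and spleens were taken 4 h, 12 h or 24 h later. The gate for responding cells was Blue+Red- for the 4 h mice. It was Blue+Red+ for those taken at 12 h, and for those taken at 24 h it was Blue-Red+. Time and gate therefore cannot be told apart. Control mice were untreated, and the gate used for them is not given in the sources used here. Mice were of both sexes, with ages not given, and there were 3 mice in each of the 7 groups.

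RNA was read from the 3′ end of transcripts, and library totals ranged from 2352800 to 6244279 counts. Levels are given as normalised counts, meaning counts divided by a size factor for each library, and 3 counts correspond to between 1.85 and 4.28 normalised counts. These levels compare 1 gene between libraries. All 7 CD4 T cell markers were detected in every group, and summed to 9582 to 10326 normalised counts in the control. At 4 h they summed to 6373 to 7168 at 0.8 µg and 5525 to 6118 at 80 µg. The sums were 4224 to 4804 and 5669 to 5816 at 12 h, and 9331 to 9823 and 11126 to 11484 at 24 h. The doses did not overlap at any time. Libraries of the 0.8 µg group at 12 h were the least alike, with replicate 3 farthest from the others. In RNA from sorted pools, fewer cells expressing a gene and less RNA per cell cannot be told apart.

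Metallothioneins are small cysteine-rich proteins that bind zinc and copper in the cytosol and buffer the free metal. When free zinc rises, the zinc finger protein encoded by Mtf1 binds metal response elements in DNA and activates Mt1, Mt2 and Slc30a1. Slc30a proteins (ZnT) move zinc out of the cytosol, whereas Slc39a proteins (ZIP) bring it in, and zinc uptake is known to affect signalling downstream of the T cell receptor.

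Mt1 and Mt2 lie next to each other on chromosome 8 and are read in the same direction. In GRCm38 with GENCODE vM21, Mt2 spans chr8:94172664-94173568 and Mt1 spans chr8:94179082-94180327, both on the plus strand, with 5513 bases between the end of Mt2 and the start of Mt1. The sequences upstream of both genes are shown because metal response elements are defined by their letters. They are RefSeq promoter windows of GRCm38.p6 on the plus strand, chr8:94178839-94179081 for Mt1 and chr8:94172368-94172617 for Mt2, and capitals mark the core of a metal response element (TGCACNC or TGCGCNC on either strand).
Mt1: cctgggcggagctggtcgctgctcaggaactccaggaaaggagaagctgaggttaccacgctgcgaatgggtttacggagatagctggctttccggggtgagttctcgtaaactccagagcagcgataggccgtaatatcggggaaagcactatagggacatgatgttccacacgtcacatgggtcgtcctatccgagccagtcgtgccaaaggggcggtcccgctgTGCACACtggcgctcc
Mt2: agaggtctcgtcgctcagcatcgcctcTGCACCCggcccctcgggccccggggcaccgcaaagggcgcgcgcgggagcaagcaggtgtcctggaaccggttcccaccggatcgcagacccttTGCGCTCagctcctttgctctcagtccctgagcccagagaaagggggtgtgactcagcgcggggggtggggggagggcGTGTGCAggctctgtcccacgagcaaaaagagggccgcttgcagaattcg

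The Mt1 window, of 243 bases because it stops before the annotated gene, held 1 core, TGCACAC, at positions -23 to -17 from the RefSeq start. The Mt2 window, of 250 bases, held 3 cores, at -223 to -217, at -128 to -122 and, on the minus strand, at -50 to -44. Just after the RefSeq start, outside the printed windows, there were 2 further cores for Mt1, at 2 to 8 and 20 to 26, 1 for Mt2, at 4 to 10, and 1 for Slc30a1, at 30 to 36, so the number of cores depends on where the window ends. Among 32851 RefSeq promoters, 21.4% had at least 1 such core in the 250 bases before the start and 1.26% had at least 3. Slc30a1 had 1 core, at -43 to -37 on the minus strand, and no core was found for Mtf1 or for either of the 2 starts of Slc39a10. The core of an antioxidant response element, TGACNNNGC on either strand, occurred once upstream of Mt2 and once upstream of Slc30a1, and in 10.2% of all windows. These are matches of letters, not sites shown to be bound. Of the 6 genes, 5 had an entry in the promoter table, and Slc39a6 is named only. Transcripts with later starts are also annotated, at chr8:94179211 and chr8:94179241 for Mt1 and chr8:94172860 for Mt2. No window was taken for these starts.

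To determine how the metallothioneins varied with antigen dose, their counts were compared library by library. Both genes were at or near 0 in control cells and at 0.8 µg, and were high at 80 µg. The group mean at 80 µg was highest at 4 h and lowest at 24 h for each gene. For Mt1, the 80 µg libraries at 4 h, at 37.8 to 109 normalised counts, overlapped those at 12 h, at 29.2 to 54.4.

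In the 3 control libraries, Mt1 had 0, 2 and 0 counts. After 0.8 µg it had 2, 1 and 1 counts at 4 h, 0, 4 and 3 at 12 h, and 3, 3 and 4 at 24 h. After 80 µg it had 94, 39 and 120 counts at 4 h, 32, 42 and 56 at 12 h, and 8, 12 and 28 at 24 h. At each time, every 80 µg library was above every 0.8 µg library. The mean level of Mt1 was 83.2 ± 39.4 normalised counts (SD, n = 3) at 80 µg and 4 h, against 1.47 ± 0.489 at 0.8 µg and 4 h and 0.676 ± 1.17 in the control. It was 38.2 ± 14.1 at 80 µg and 12 h, and 11.6 ± 4.88 at 80 µg and 24 h. At 0.8 µg, Mt1 stayed close to the level of 3 counts, at 2.18 ± 1.9 normalised counts at 12 h and 3.28 ± 0.736 at 24 h.

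Mt2 had 5, 0 and 0 counts in the control libraries. At 0.8 µg it had 0, 1 and 0 counts at 4 h, 0, 4 and 0 at 12 h, and 0, 4 and 0 at 24 h, where all of the counts in each group came from replicate 2. At 80 µg it had 82, 66 and 132 counts at 4 h, 39, 25 and 43 at 12 h, and 11, 4 and 13 at 24 h. The doses did not overlap at 4 h or 12 h, whereas at 24 h replicate 2 of the 80 µg group was at 2.94 normalised counts, below replicate 2 of the 0.8 µg group at 3.73. Mean levels at 80 µg were 90.7 ± 24.9, 31.9 ± 12.2 and 7.67 ± 4.56 normalised counts (SD, n = 3) at 4 h, 12 h and 24 h. The control mean of 1.72 ± 2.98 came from 1 library.

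**Figure D1:**
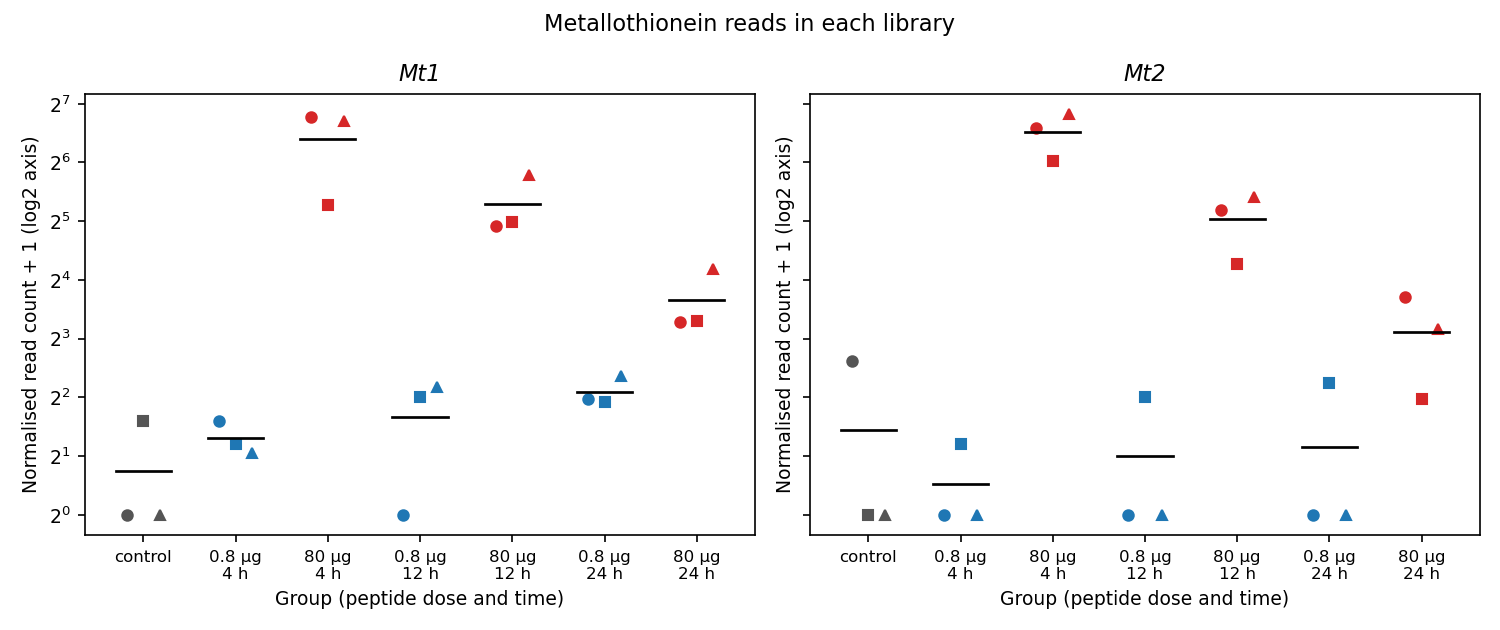
Normalised counts of Mt1 and Mt2 plus 1, on a log2 axis, in each of the 21 libraries by group. Circles, squares and triangles are replicates 1, 2 and 3, grey is control, blue 0.8 µg and red 80 µg, and black lines are group means. At 80 µg, Mt1 went from a mean of 83.2 at 4 h to 11.6 at 24 h and Mt2 from 90.7 to 7.67, with the control and 0.8 µg groups at 3.28 or lower.

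The size of the dose difference is also given as a ratio of pooled counts, the counts of a group's 3 libraries summed and divided by the sum of their size factors, with exact 95% intervals that cover counting error only. It weights deep libraries more than a ratio of the group means does. For Mt1, the level at 80 µg was 55.3 times that at 0.8 µg at 4 h (21.3 to 204), 17.1 times at 12 h (8.05 to 43.3) and 3.78 times at 24 h (1.89 to 8.38). For Mt2, the ratios were 245 (43.6 to 9699) at 4 h, 24.6 (9.32 to 91.8) at 12 h and 5.52 (1.93 to 21.6) at 24 h. The wide interval of Mt2 at 4 h rests on 1 count in the whole 0.8 µg group. Against control, the 80 µg ratios were 109.7 (30.1 to 911), 49.5 (13.4 to 413) and 16.4 (4.29 to 139) for Mt1, and 48.6 (20.6 to 151), 16.3 (6.77 to 51.2) and 3.82 (1.46 to 12.7) for Mt2. At 0.8 µg, all 6 counting intervals of the ratio to control included 1. The lowest of these ratios was 0.199 (0.0042 to 1.77), for Mt2 at 4 h, and the highest was 4.33 (0.923 to 40.6), for Mt1 at 24 h. In that last comparison the 3 libraries at 0.8 µg, at 2.80 to 4.13 normalised counts, were all above those of the control, at 0 to 2.03, although all of them were at or near the level of 3 counts.

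On the DESeq2 scale, where a shrunken log2 fold change is pulled towards 0 for genes with few counts, the dose difference in Mt1 was 5.10 (SE 0.65) at 4 h, 3.70 (SE 0.61) at 12 h and 1.65 (SE 0.60) at 24 h. For Mt2 it was 6.03 (SE 0.76), 4.01 (SE 0.70) and 1.99 (SE 0.72). Fitted to the 2 groups of each time alone, the values were 3.49, 1.62 and 0.52 for Mt1 and 4.02, 1.5 and 0.38 for Mt2, with the same calls. A gene was called where its adjusted p was under 0.05 and its shrunken log2 fold change was above 1 in either direction. Between the doses, Mt1 and Mt2 were the members called, 2 of 6 at 4 h and 2 of 6 at 12 h, and 0 of 6 were called at 24 h. Among all genes tested, 5.85% were called at 4 h, 2.79% at 12 h and 1.56% at 24 h. As the members were picked with these comparisons known, their share is not read against these percentages. Without replicate 3 of the 0.8 µg group at 12 h, the library that stood apart, the 12 h values were 3.87 for Mt1 and 3.63 for Mt2, still called. At 24 h, Mt2 was called, at 2.81, when replicate 2 of the 0.8 µg group was left out. Against control, Mt2 at 80 µg and 24 h was at 1.63 (SE 0.71), not called, and was called without control replicate 1 (2.71) or without replicate 2 of the 80 µg group (1.96). Mt1 at 0.8 µg and 24 h was at 1.28 (SE 0.77), not called, and was called without control replicate 2, at 1.51.

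Summed levels of markers of other cells are given beside the metallothioneins for the libraries of each dose. At 4 h, 9 myeloid markers summed to 37.8 to 150.4 normalised counts at 0.8 µg and 11.1 to 45.5 at 80 µg, which overlap. The 6 dendritic cell markers summed to 0 to 6.47 at 0.8 µg, with 3 at 0 in every library, and to 1.94 to 5.14 at 80 µg, with 5 at 0. B cell markers summed to 208 to 362 at 0.8 µg and 179 to 248 at 80 µg at this time, which also overlap, against 1385 to 1593 in the control. Erythroid markers overlapped too, at 78.8 to 519 and 19.7 to 257. Of these cell types, only the NK cell markers did not overlap between the doses at 4 h. They summed to 5.27 to 12.1 at 0.8 µg and 20.6 to 129.6 at 80 µg, with Ncr1 at 0 in both groups. At 12 h, the 2 CD8 T cell markers were at 139.9 to 181 at 0.8 µg and 45.7 to 75.8 at 80 µg, and NK cell markers at 74.5 to 96.3 and 27.9 to 51.2, lower at 80 µg in both cases and with no overlap. At 24 h, NK cell markers were at 40.3 to 60.4 and 83.3 to 102, and B cell markers at 1124 to 1250 and 1478 to 1678, higher at 80 µg. Most of these B cell sums came from Ighm, at 990 to 1045 and 1422 to 1560, while Cd79a was at 0 in every library at 24 h. CD8 T cell markers, at 119.8 to 153 and 81.1 to 113, and dendritic cell markers, at 3.73 to 11.4 and 0 to 0.616, were lower at 80 µg at 24 h, again with no overlap. The part of any of these cells in the metallothionein levels was not tested.

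The shares of Mt1 and Mt2 among their summed reads were compared within the 80 µg groups. Of 533 reads of both genes at 80 µg and 4 h, 47.5% were from Mt1 (95% Wilson interval 43.3 to 51.7), and the share was 54.9% of 237 reads (48.5 to 61.1) at 12 h and 63.2% of 76 reads (51.9 to 73.1) at 24 h. The libraries spread more widely than these intervals, from 37.1 to 53.4% at 4 h, 45.1 to 62.7% at 12 h and 42.1 to 75.0% at 24 h, and the 3 times overlapped. The reads were not converted to transcript levels, and how reads matching both genes were counted is not given in the sources used here. Mt2 also overlaps Gm45774, annotated on the opposite strand, which has no row in the count table.

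To describe whether the sensor gene followed the same course, Mtf1 was set beside the metallothioneins. It was higher than control at 4 h at either dose and showed little difference between the doses. Mtf1 spans chr4:124802104-124849800 on the plus strand. Its levels were 129.9, 90.3 and 57.1 normalised counts in the control libraries, 189.8, 177 and 213 at 0.8 µg and 4 h, and 182, 211 and 171 at 80 µg and 4 h. All 6 libraries at 4 h were above all 3 of the control.

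At 12 h, Mtf1 was at 135, 141 and 190.2 normalised counts at 0.8 µg and at 137, 128 and 156 at 80 µg. At 24 h it was at 117, 74.6 and 82.6 at 0.8 µg and at 119, 102 and 96.8 at 80 µg, within the control range. Only 1 gap appeared between neighbours in the order of group means, between 80 µg at 12 h (140.3 ± 13.9) and 80 µg at 24 h (106 ± 11.8). The dose differences on the log2 scale were -0.04 (SE 0.21) at 4 h, -0.14 (SE 0.22) at 12 h and 0.21 (SE 0.22) at 24 h, with intervals within -0.57 and 0.65. Thus a dose difference in Mtf1 of the size seen for Mt1 at 4 h lay outside these intervals.

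Against control, Mtf1 differed by 1.03 (SE 0.22) at 0.8 µg and 4 h, which passed the call, and by 0.99 (SE 0.22) at 80 µg and 4 h, which did not. These values lie on either side of the threshold of 1 and do not show a difference between doses. The first was 0.96 without replicate 3 of the 0.8 µg group at 4 h and 0.80 without control replicate 3, neither of them called. The second was called without replicate 1 or 3 of the 80 µg group at 4 h (1.03 and 1.06) or without control replicate 1 (1.31). An exon of Mtf1 overlaps 1110065P20Rik on the opposite strand, which had 52 counts in the control group and 147 and 221 at 4 h, and the strand setting used in counting is not given in the sources used here.

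Slc30a1 encodes the exporter ZnT1 of the plasma membrane, another target of the Mtf1 protein. At 4 h its level was lower at 80 µg than at 0.8 µg, the opposite order to that of the metallothioneins, and its lowest group means were at 24 h. The gene spans chr1:191906767-191913247 on the plus strand. Control libraries had 78.3, 66.9 and 54.2 normalised counts. At 4 h, the 0.8 µg libraries were at 57.5, 63.2 and 64.7 and the 80 µg libraries at 39.4, 31.0 and 37.7, with no overlap. At this time the group means of Mt1 and Mt2 were at their highest, in the same 80 µg libraries.

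At 12 h, Slc30a1 was at 52.9, 38.4 and 16.4 normalised counts at 0.8 µg and at 42.9, 46.2 and 71.0 at 80 µg. The 0.8 µg group spread widely, as replicate 3 had 14 counts where the other libraries had 54 and 51. At 24 h it was at 30.2, 13.1 and 28.9 at 0.8 µg and at 28.5, 16.2 and 17.9 at 80 µg, with every library below the control. The dose differences were -0.76 (SE 0.35), 0.53 (SE 0.35) and -0.22 (SE 0.38) on the log2 scale at 4 h, 12 h and 24 h, and none was called. Without replicate 3 of the 0.8 µg group at 12 h, the value of 0.53 became 0.23. Against control, Slc30a1 was called lower at 24 h at 0.8 µg (-1.43, SE 0.36) and 80 µg (-1.65, SE 0.36). At 0.8 µg and 12 h it was at -0.85 (SE 0.35), not called, and without replicate 1 of that group at -1.20, called. The gene 1700034H15Rik, which it overlaps on the opposite strand, had at most 11 counts in a group.

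Slc39a6 and Slc39a10 encode ZIP6 and ZIP10, closely related importers of the plasma membrane. Among the zinc transporter genes called against control at 4 h, Slc39a6 was the one furthest above it at either dose. At 24 h its group means, 84.2 and 93.0 normalised counts, were near the control mean of 94.3. It spans chr18:24579881-24603817 on the minus strand. Control libraries had 103, 98.4 and 81.4 normalised counts. At 4 h, Slc39a6 was at 521, 458 and 477 at 0.8 µg and at 530.1, 599.5 and 544 at 80 µg. All 6 libraries were at 458 normalised counts or above, and the doses did not overlap, although they were close.

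At 12 h, Slc39a6 was at 140.2, 127 and 169 normalised counts at 0.8 µg and at 164, 217 and 155 at 80 µg, still above all control libraries. At 24 h it was at 83.7, 82.1 and 86.7 at 0.8 µg and at 80.0, 113 and 85.7 at 80 µg. On the log2 scale it differed from control at 4 h by 2.34 (SE 0.17) at 0.8 µg and 2.54 (SE 0.17) at 80 µg, both called, while the dose difference at 4 h was 0.20 (SE 0.15). The dose differences at 12 h and 24 h were 0.31 (SE 0.16) and 0.15 (SE 0.18), with upper 95% bounds of 0.49, 0.63 and 0.50 over the 3 times. At 80 µg and 12 h, Slc39a6 differed from control by 0.91 (SE 0.17), not called, and by 1.01, called, without replicate 3 of that group.

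Slc39a10 had its highest group mean at 80 µg and 4 h, but its ranges at 80 µg overlapped between 4 h and 12 h, and the highest single library was replicate 1 at 80 µg and 12 h. It spans chr1:46807544-46892852 on the minus strand. Control libraries had 69.1, 115 and 97.1 normalised counts, and at 4 h it was at 132, 175 and 168 at 0.8 µg and at 249, 259.6 and 278 at 80 µg. The control, 0.8 µg and 80 µg libraries at 4 h formed 3 ranges that did not overlap. At 12 h it was at 128, 153 and 178 at 0.8 µg and at 301, 221 and 46.7 at 80 µg, where replicate 3 had 48 counts and the others 329 and 301. At 24 h, Slc39a10 was at 75.0, 70.9 and 43.4 at 0.8 µg and at 93.1, 49.3 and 85.0 at 80 µg.

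Only the difference of 80 µg from control at 4 h was called for Slc39a10, at 1.41 (SE 0.43). At 12 h, that difference was 0.97 (SE 0.43) and was not called, and it was called without replicate 3 of the 80 µg group (1.46) or control replicate 2 (1.11). The dose differences were 0.69 (SE 0.43), 0.29 (SE 0.43) and 0.25 (SE 0.44), none of them called. The 12 h value rested on single libraries of the 80 µg group, as it was 0.75 without replicate 3 and -0.18 without replicate 1, and the deposited rlog means differed by -0.04, so no direction is read from it.

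**Figure D2:**
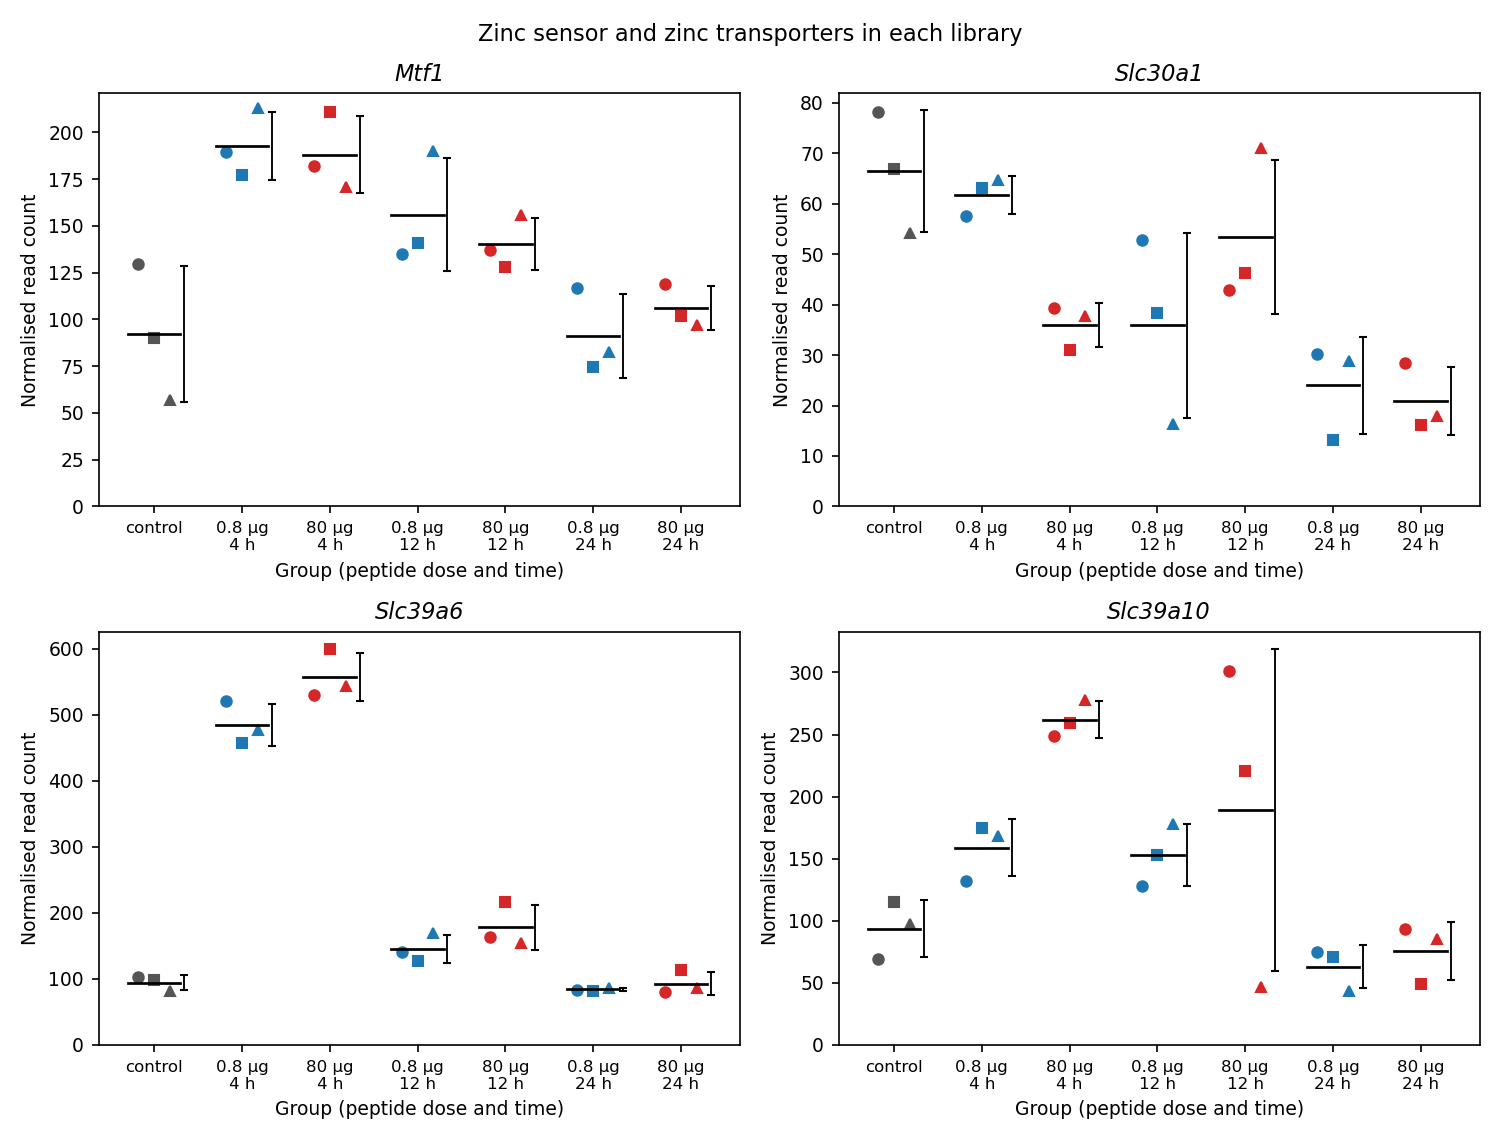
Normalised counts of Mtf1, Slc30a1, Slc39a6 and Slc39a10 in each library by group, with the mean as a line and the SD as bars (n = 3). Slc39a6 reached means of 485 and 558 at 4 h against 94.3 in the control, whereas Slc30a1 was at 36.0 at 80 µg and 4 h against 61.8 at 0.8 µg.

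Taking the comparisons with control over the 6 genes, 2 were called at 0.8 µg and 4 h, when 40.7% of all genes tested were called. None was called at 12 h (37.7% of all genes), and 1 was at 24 h (17.3%). At 80 µg, 4 of 6 were called at 4 h (43.5% of all genes), 2 at 12 h (37.9%) and 2 at 24 h (20.2%). These 6 comparisons share the control libraries. Members called higher were Mtf1 and Slc39a6 at 0.8 µg and 4 h, Mt1, Mt2, Slc39a6 and Slc39a10 at 80 µg and 4 h, Mt1 and Mt2 at 80 µg and 12 h, and Mt1 at 80 µg and 24 h.

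The deposited rlog values, on a log2 scale that draws low counts together, describe the same libraries. Relative to the control mean, Mt1 was at 3.68, 2.82 and 1.51 at 80 µg and at 0.18, 0.24 and 0.50 at 0.8 µg, at 4 h, 12 h and 24 h. Mt2 was at 3.78, 2.49 and 0.91 at 80 µg and between -0.27 and -0.15 at 0.8 µg. Slc39a6 was at 2.26 and 2.46 at 4 h for the low and the high dose, and Slc30a1 at -1.26 and -1.40 at 24 h.

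To ask whether the dose difference varied with time, a likelihood ratio test of the interaction was run on the 18 immunised libraries. Of all genes tested, 10.4% passed at an adjusted p under 0.05. Of the 13 zinc handling genes tested that were not among the 6, 0 passed by this test with DESeq2 and 0 by edgeR, while 4 had an unadjusted p under 0.05. As the 6 members were chosen with their levels in these groups known, nothing is read from their own test, and how the dose difference in Mt1 and Mt2 varied with time is given by the values above.

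Over all 21 libraries, Mt1 and Mt2 ran together, with a Pearson r of 0.88 on log2(normalised count + 1). Mtf1 ran closest with Slc39a6 (0.82), and Slc39a6 with Slc39a10 at 0.70. Mt1 had an r of 0.32 with Mtf1 and -0.20 with Slc30a1. The points share groups and sorting gates, so these values describe the libraries and carry no test.

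By the same measure, the genes most like Mt1 among 8761 that averaged 20 or more normalised counts were Gm12534 (r = 0.904), Il21 (0.899), Chmp4b (0.868), F730043M19Rik (0.855) and Icos (0.849), where the median gene had an r of 0.004. Those most like Mt2 were Gm12534 (0.906), Malt1 (0.898), Ptpn1 (0.894), Smim3 (0.893) and Il21 (0.892). Il21, the gene of a cytokine of helper T cells, had group means of 153 and 204 normalised counts at 80 µg at 4 h and 12 h and 2.39 or less at 0.8 µg and in the control. Gm12534 lies at chr3:37231333-37232469 on the plus strand and shares exonic sequence with Il21 on the minus strand, so their reads may not be told apart. Mt2 has a mean of 19.2 normalised counts and was therefore not among the genes searched for Mt1.

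The remaining members had other companions. For Mtf1, these were Ddx41 (r = 0.937), Gm38357 (0.916) and Cd320 (0.905). For Slc39a6 they were Slc1a5 (0.980), a glutamine transporter gene, Dot1l (0.978) and Mir17hg (0.976). Slc39a10 was most like Tnfrsf22 (0.837), Dhrs13 (0.833) and Dimt1 (0.830), and Slc30a1 most like Zfp990 (0.842), Pdss2 (0.790) and Alg1 (0.747).

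The wider zinc handling list holds the 4 metallothionein genes, Mtf1, 10 Slc30a genes and 14 Slc39a genes. Of these 29, Mt3, Mt4, Slc30a8, Slc30a10, Slc39a5 and Slc39a12 had no counts, Slc30a3 had 8 and Slc39a7 had 5, and 21 passed the filter. Slc39a7 overlaps Gm20427 (2 counts) on its own strand, as Slc39a2 does Mettl17 (1486 counts). How reads matching both genes of such a pair were counted is not given in the sources used here. Between the doses, 2 of 19 list genes tested were called at 4 h, 3 of 19 at 12 h and 0 of 17 at 24 h, beside 5.85%, 2.79% and 1.56% of all genes. Mt1 and Mt2, which were chosen with their dose levels known, made up both calls at 4 h and 2 of the 3 at 12 h. Outside the members, DESeq2 therefore made 0 calls at 4 h, as did edgeR, and 1 at 12 h. At an unadjusted p under 0.05, DESeq2 had 5 list genes at 4 h, 3 of them members, and 4 at 24 h, 2 of them members, and edgeR called 0 list genes at 24 h. By adjusted p alone, 3 list genes passed at 4 h. The one beyond Mt1 and Mt2 was Slc39a1, the gene of the importer ZIP1, at 31.3 to 65.9 normalised counts at 0.8 µg and 76.5 to 92.6 at 80 µg, a log2 fold change of 0.93 (SE 0.34), which was called, at 1.28, without replicate 2 of the 0.8 µg group and was named after its values were seen. The median log2 fold change of the list was 0.37, 0.10 and 0.17 at the 3 times, and that of all genes was -0.01, 0.00 and 0.00. The list medians include the 6 members, whose own medians were 0.45, 0.42 and 0.23, so they are not read against those of all genes.

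The call at 12 h that was not a metallothionein was Slc39a8, which encodes the metal importer ZIP8. It had 1, 4 and 1 counts at 0.8 µg and 19, 14 and 12 at 80 µg, a log2 fold change of 2.35 (SE 0.68, DESeq2 adjusted p = 0.0197). The call was lost without any one of the 0.8 µg libraries or without replicate 1 of the 80 µg group, where the fold change was 2.04 to 2.55. Fitted to those 2 groups alone it was 0.75 and not called.

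**Figure D3:**
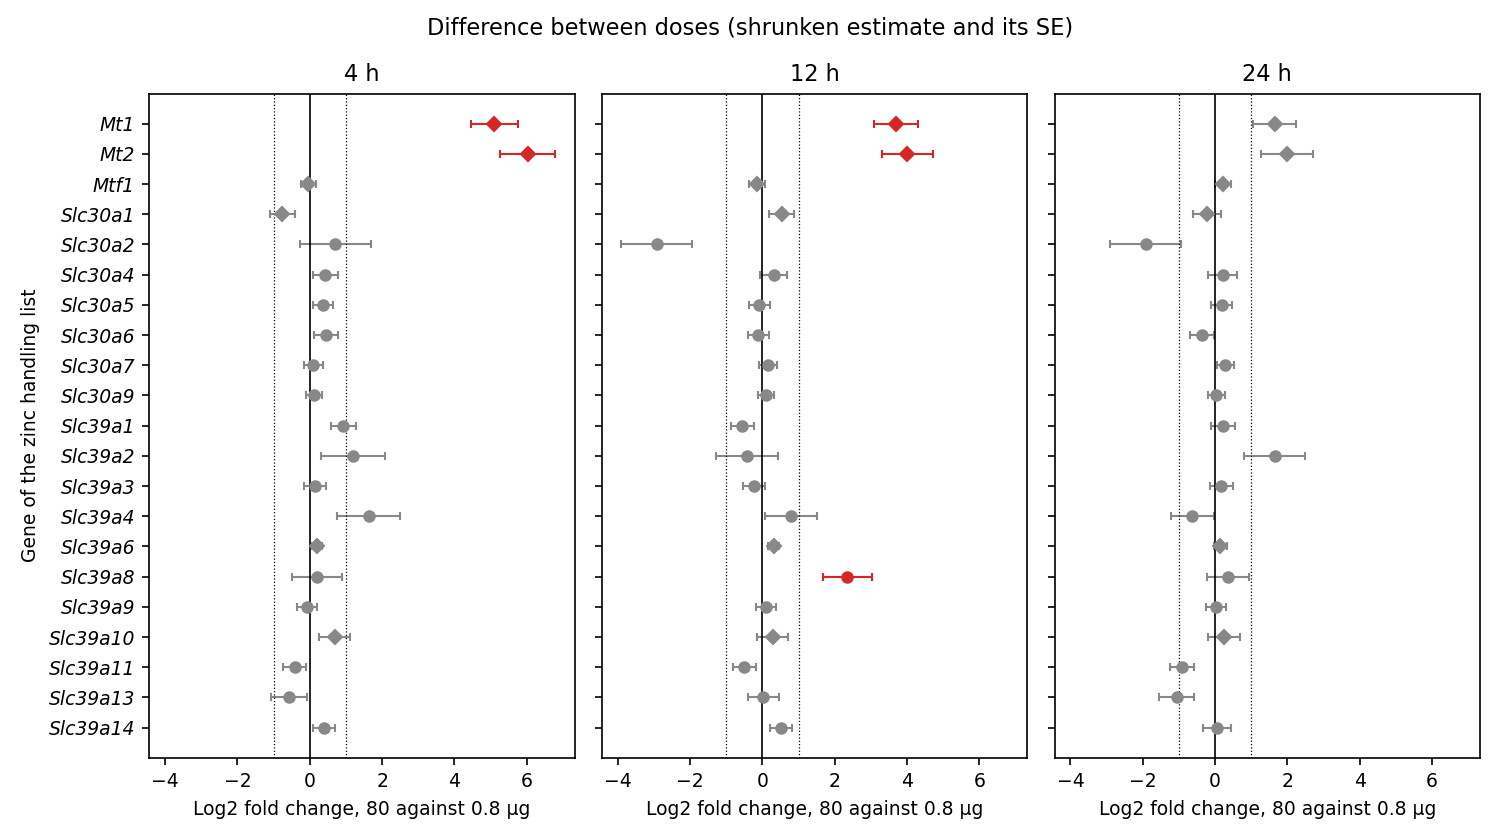
Shrunken log2 fold change between 80 µg and 0.8 µg at 4 h, 12 h and 24 h for the 21 list genes past the filter, with SE bars. Diamonds are the 6 members, red marks called genes and dotted lines stand at 1 and -1. Mt1 and Mt2 lie farthest to the right at 4 h, at 5.10 and 6.03, and most other genes lie between the dotted lines.

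Against control at 4 h, 7 of 21 list genes were called at 0.8 µg, 5 higher and 2 lower, and 10 of 21 at 80 µg, 7 higher and 3 lower. These are 33.3% and 47.6% of the list, where 40.7% and 43.5% of all genes were called. Of the list's calls, 2 at 0.8 µg and 4 at 80 µg were members, chosen with these levels known, so no excess over all genes is read from the shares. Slc30a4 and Slc30a5, which load zinc into vesicles and the secretory pathway, rose. Slc30a4 had means of 24.3 normalised counts in the control, 71.8 at 0.8 µg and 97.4 at 80 µg (log2 fold changes 1.5 and 1.93, DESeq2 adjusted p = 0.000273 and 1.32e-06). Slc30a5 had means of 57.8, 119 and 153 (1.03 and 1.40, DESeq2 adjusted p = 0.000712 and 1.96e-06), of which the value at 0.8 µg was below the call without replicate 2 of that group or without control replicate 1 or 2, at 0.84 to 0.93. The importer gene Slc39a14 rose at 4 h, from a mean of 31.2 to 92.5 and 121, and fell at 24 h, to 13.8 and 14.2. Its fold changes were 1.52 and 1.91 at 4 h (DESeq2 adjusted p = 9.72e-06 and 1.22e-08) and -1.13 and -1.07 at 24 h (DESeq2 adjusted p = 0.00901 and 0.00999). At 24 h its calls were lost without control replicate 1 (-0.91 and -0.85) or without replicate 2 of the dose group (-0.97 and -0.86).

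Slc30a7, a carrier of zinc into the Golgi, fell at 4 h and 12 h, from 137 normalised counts in the control to 56.8 and 61.3 at 4 h and 59.2 and 66.2 at 12 h, for 0.8 µg and 80 µg. The fold changes were -1.24 and -1.14 at 4 h (DESeq2 adjusted p = 3.09e-06 and 1.22e-05) and -1.19 and -1.03 at 12 h (DESeq2 adjusted p = 5.3e-06 and 7.23e-05). Beside this, B cell markers summed to 1385 to 1593 in the control, 208 to 362 and 179 to 248 at 4 h, and 150.3 to 405 and 153 to 336 at 12 h, and their part in the lower genes was not tested. At 24 h these markers were at 1124 to 1250 and 1478 to 1678, and Slc30a7 had means of 78.8 and 97.8. The B cell sums in the control and at 24 h came mostly from Ighm, at 1111 to 1203 in the control. Another of these markers, Cd79a, was at 0 in every library at 24 h. At 80 µg, leaving out control replicate 3 ended the calls, at -0.97 and -0.86, as did leaving out control replicate 1 or replicate 2 of the 80 µg group at 12 h, at -0.99 and -0.97. Slc39a13 was lower at 80 µg at 4 h (-1.46, DESeq2 adjusted p = 0.00461) and 24 h (-1.68, DESeq2 adjusted p = 0.0015), but it shares exonic sequence with the abundant Psmc3 on the opposite strand. Slc39a11 fell at 80 µg and 24 h, from 66.3 to 27.2 (-1.22, DESeq2 adjusted p = 0.00107), and without control replicate 3 was at -0.89.

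At 12 h, 4 of 21 list genes were called at 0.8 µg and 3 of 21 at 80 µg, and at 24 h 3 of 20 and 5 of 21. The shares were 19.0% and 14.3% at 12 h, where 37.7% and 37.9% of all genes were called, and 15.0% and 23.8% at 24 h, where 17.3% and 20.2% were. Of these, 1 was higher and 3 lower at 0.8 µg and 12 h, 2 and 1 at 80 µg and 12 h, 1 and 2 at 0.8 µg and 24 h, and 1 and 4 at 80 µg and 24 h. In the same order, 0, 2, 1 and 2 of the calls were members, chosen with these levels known. The list's median difference from control, members included, lay between -0.36 and 0.30 on the log2 scale, and that of all genes between -0.12 and 0.00. The calls of rare genes rested on few counts. Slc39a4, the gene of an importer known from the intestine, had 8, 13 and 4 counts in the control and 0 in every library at 0.8 µg and 4 h, and at 0.8 µg and 24 h it was at 35.3 normalised counts against 9.05 (1.78, DESeq2 adjusted p = 0.0205), a call lost without control replicate 1 or 3 or replicate 2 or 3 of the dose group, at 1.47 to 1.75. Its means of 2.34 at 0.8 µg and 12 h and 2.4 at 80 µg and 4 h were also called lower (DESeq2 adjusted p = 0.0426 and 0.0449), and each call was lost without control replicate 1 or 2 or without either of 2 libraries of the dose group. Slc39a8 was lower at 0.8 µg and 12 h than in the control, at 1.72 against 8.18 (DESeq2 adjusted p = 0.034), a call lost without control replicate 1 or 3 or replicate 1 or 3 of the dose group, at -1.66 to -1.19. Slc30a2 had 14, 7 and 0 counts at 0.8 µg and 12 h and 0 in all control libraries, and its call (DESeq2 adjusted p = 0.0275) was lost without replicate 1 or 2 of that group or control replicate 1 or 2. The other 6 list genes past the filter, Slc30a6, Slc30a9, Slc39a1, Slc39a2, Slc39a3 and Slc39a9, were not called in any of the 9 comparisons with all libraries.

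**Figure D4:**
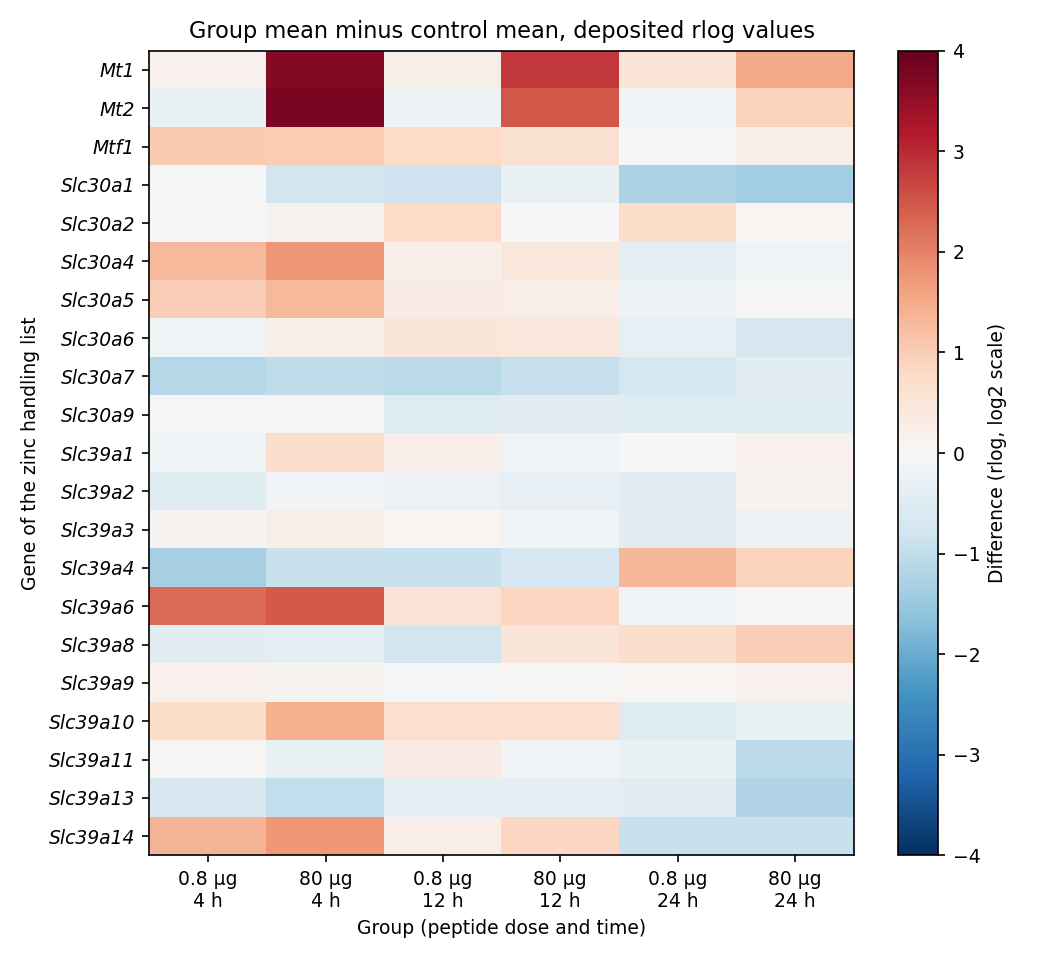
Difference of each group's mean deposited rlog from the control mean (log2 scale, colour) for the 21 list genes in 6 immunised groups. Mt1 and Mt2 stand at 3.68 and 3.78 at 80 µg and 4 h, and Slc39a6 at 2.26 and 2.46 at 4 h for the low and the high dose.

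Other sets of genes that respond to metals or to agents that induce metallothioneins were counted in the same comparisons. Of 10 copper handling genes, 0, 1 and 0 were called between doses at 4 h, 12 h and 24 h by DESeq2 and by edgeR, with none at 4 h or 24 h at an unadjusted p under 0.05. In these comparisons 9, 9 and 8 of them had a DESeq2 adjusted p. The one called was Atp7a, a copper exporter gene, named after its values were seen. It fell from 115 to 48.8 normalised counts at 12 h (-1.22, DESeq2 adjusted p = 0.000313). Fitted to the 2 groups only, Atp7a was at -0.96, not called. At 12 h, 3 copper handling genes had an unadjusted p under 0.05 by DESeq2, and 2 had an adjusted p under 0.05. Beside Atp7a this was Commd1, at 102 normalised counts at 0.8 µg and 52.4 at 80 µg (-0.95, DESeq2 adjusted p = 0.027), under the fold change threshold. Against control, 6, 6 and 4 of the 10 were called at 80 µg and 7, 6 and 3 at 0.8 µg, beside 43.5%, 37.9% and 20.2% of all genes at 80 µg and 40.7%, 37.7% and 17.3% at 0.8 µg. Of these calls, 4, 5 and 3 were higher and 2, 1 and 1 lower at 80 µg, and 5, 5 and 3 were higher and 2, 1 and 0 lower at 0.8 µg. Only 9 of the 10 were tested at 0.8 µg and 24 h. Sco2, needed to deliver copper to cytochrome oxidase, rose from 28.8 to 209 at 80 µg and 4 h (2.79, DESeq2 adjusted p = 4.89e-19). Of 9 oxidative stress genes past the filter, 0 were called between doses at each time by DESeq2, with 3, 0 and 2 at an unadjusted p under 0.05, while edgeR called 2 (Txnrd1 and Srxn1), 0 and 0. DESeq2 gave an adjusted p for 7, 7 and 6 of the 9, and none for Srxn1 at 4 h, which it therefore could not call. Of all genes, 5.85%, 2.79% and 1.56% were called between doses by DESeq2. At 4 h, 2 of these genes had an adjusted p under 0.05 with a fold change under the threshold of 1. They were Txnrd1 and Txn1, of the thioredoxin system. Txnrd1 had means of 352 normalised counts at 0.8 µg and 704 at 80 µg (0.99, DESeq2 adjusted p = 3.32e-10), and Txn1 of 288 and 491 (0.77, DESeq2 adjusted p = 0.000197). Txnrd1 also passed the interaction test (DESeq2 adjusted p = 8.92e-07). The calls against control were all higher, 4, 4 and 3 at 80 µg (43.5%, 37.9% and 20.2% of all genes) and 2, 5 and 3 at 0.8 µg (40.7%, 37.7% and 17.3%). The largest were Txnrd1, from 142 to 704 at 80 µg and 4 h (2.29, DESeq2 adjusted p = 1.33e-47), and Txn1, from 219 to 1325 at 80 µg and 24 h (2.58, DESeq2 adjusted p = 5.4e-48).

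Glucocorticoids are known inducers of Mt1 and Mt2. Of 6 glucocorticoid-induced genes past the filter, 2 were called between doses at 4 h and 1 each at 12 h and 24 h, beside 5.85%, 2.79% and 1.56% of all genes. Against control there were 5, 3 and 4 calls at 80 µg (43.5%, 37.9% and 20.2% of all genes) and 6, 4 and 3 at 0.8 µg (40.7%, 37.7% and 17.3%). Of these, 2 were higher and 3 lower at 80 µg and 4 h, and 3 higher and 3 lower at 0.8 µg and 4 h. Tsc22d3, a glucocorticoid target in T cells, was lower than the control mean of 539.5 normalised counts in every group, by -5.34 and -5.91 at 80 µg at 4 h and 12 h and by -5.91 and -5.96 at 0.8 µg (DESeq2 adjusted p = 4.37e-25, 1.94e-28, 2.32e-26 and 7.52e-28). Per1 and Klf9 were higher at 4 h, at 2.13 and 2.73 at 80 µg and 2.17 and 1.88 at 0.8 µg (DESeq2 adjusted p = 5.45e-13, 4.91e-10, 2.33e-13 and 3.55e-05), and Fkbp5 was higher at 0.8 µg, at 1.20 (DESeq2 adjusted p = 2.34e-07). Thus the list did not move one way. Sgk1 had a control mean of 145 normalised counts and was at 58.7, 24.0 and 80.9 at 80 µg and at 23.7, 5.24 and 33.7 at 0.8 µg, below the control mean in each of the 6 groups. Between the doses it was higher at 80 µg, by 1.28, 2.06 and 1.24 at 4 h, 12 h and 24 h (DESeq2 adjusted p = 0.000314, 4.03e-05 and 0.000296). Fitted to the 2 groups only, the 12 h and 24 h values were 0.93 and 0.92, and neither was called. Ddit4 was lower at 80 µg than at 0.8 µg at 4 h (-1.43, DESeq2 adjusted p = 0.00914). This call was lost without replicate 3 of the 0.8 µg group or replicate 2 of the 80 µg group (-1.27 and -1.04). Fkbp5 was lower at 80 µg at 12 h, at -0.95 (DESeq2 adjusted p = 0.000272). Per1 was lower at 80 µg at 24 h, at -0.95 (DESeq2 adjusted p = 0.0483), with overlapping libraries. Neither of these 2 differences reached the fold change threshold. Apart from Tsc22d3 and Sgk1 against control, the genes of this list were named after their values were seen.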

How the data were processed

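CD4+ T cells of 21 mice in 7 groups were analysed, grouped by the labels. Per the study's methods, the authors trimmed QuantSeq reads with Bbduk, aligned them with STAR 2.5.2a (version from the submitters' processing notes) to GRCm38 and made the deposited raw counts with HTSeq-count. Its annotation release and strand setting, and whether molecular identifiers were used, are not given in the sources used here. The deposited log2 values are the authors' rlog from DESeq2.

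Of 47643 genes, 15300 had at least 10 counts in all and were fitted with DESeq2 1.42.0 (R 4.3.3), 1 coefficient per group over all 21 libraries, with normal-prior shrinkage and Benjamini-Hochberg adjustment over all genes. Genes were called at an adjusted p under 0.05 and an absolute log2 fold change above 1. The dose by time interaction was tested by likelihood ratio. On simulated data for 80 against 0.8 µg at 4 h (15300 genes), 142 of 200 genes changed by a log2 fold of 2 were recovered, with 0 false calls and a median shrunken-to-true ratio of 0.649. The changed genes averaged 20 or more normalised counts, which leaves out Mt2 (19.2) and rarer genes, and the other groups were left alike. In the real fit, Mt1 at 4 h was at 5.1 shrunken and 5.8 unshrunken, so this ratio is not carried over to the values given here.

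Members and lists were chosen with earlier results of these data known. Named genes were the 6 members, up to 12 called genes of the zinc list (all called ones are given here), 2 called genes of each other list by largest change (Sco2 of copper handling with Atp7b left out, Txnrd1 and Txn1, Tsc22d3 and Sgk1), and the 5 (Mt1, Mt2) or 3 genes most alike. Slc39a1, Atp7a, Commd1, Srxn1, Ddit4, Per1, Klf9 and Fkbp5 were named after their values were seen, as were the dose values of the other lists. Alternatives were edgeR 4.0.16, other size factors, no filter, unshrunken folds, adjusted p alone, a replicate block, fits to 2 groups, and leaving out each library. Tables and figures used Python 3.11.15, pandas 2.3.3, SciPy 1.17.1 and matplotlib 3.10.9.

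Replicates were separate mice. Gm42418 took 17.0 to 27.8% of the counts of a library. No replicate pair was within sampling noise.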

Additional observations from a re-analysis of the deposited data

Results flagged for a closer look

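The dose difference in Mt1 was larger at 4 h than at 24 h by 3.45 on the shrunken log2 scale, and that in Mt2 by 4.03. Both genes passed the likelihood ratio test of the dose by time interaction, which is why they are listed here. They were chosen with these levels known, so the test restates that choice and nothing is read from it. Neither passed when the libraries of any one replicate number were left out, and edgeR passed 1 list gene in place of 2. Time and sorting gate cannot be told apart in this difference.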

How the results depend on the processing

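Between the doses, Mt1 and Mt2 stayed called at 4 h and 12 h without any one library, at 4.76 to 5.41 and 3.21 to 3.87 for Mt1 and 5.54 to 6.12 and 3.26 to 4.73 for Mt2. At 24 h Mt1 was at 1.24 to 1.77 and Mt2 at 1.5 to 2.81. Fitted to the 2 groups alone, the values were 3.49, 1.62 and 0.52 for Mt1 and 4.02, 1.5 and 0.38 for Mt2. Over the list, genes called at 0.8 µg and 12 h against control numbered 4, but 8 by adjusted p alone, 1 when fitted to the 2 groups only and 2 to 3 without 1 library. At 0.8 µg and 24 h there were 3, but 5 by adjusted p alone and 1 to 4 without 1 library. At 80 µg and 12 h there were 3, but 7 by adjusted p alone and 2 to 5 without 1 library. Between doses at 24 h there were 0, and 0 to 1 without 1 library. The interaction test passed 2 list genes, 1 by edgeR, and 0 to 0 without 1 replicate number. Same-numbered libraries had correlations of -0.17 to 0.211, and 6 of 27 correlated best with their own number, so these correlations did not show a pairing by number. Lyz2, a myeloid marker, was nonetheless lowest in replicate 3 of every group. Hbb-bs, an erythroid marker, was lowest there in every group except 80 µg at 24 h. Whether mice of one number shared a batch was not tested. With the replicate block, 2 list genes were called at 0.8 µg and 12 h and 1 passed the interaction test. Scaling by library totals put Mtf1 at 0.88 (0.8 µg, 4 h, not called) and Slc30a1 at -1.01 (80 µg, 4 h, called), shifted the median of all genes by -0.19 at 80 µg and 24 h, and changed the share of higher calls among all genes from 66.2 to 54.0% (0.8 µg, 24 h), 57.0 to 39.2% (doses, 24 h) and 60.9 to 41.4% (80 µg, 24 h). Calls among all genes between doses numbered 311 at 12 h and 151 at 24 h, and 145 and 83 fitted to the 2 groups only. Mtf1 at 80 µg and 4 h was called at 1.01 unshrunken and 1.03 by edgeR. At 80 µg against control, edgeR called 5 of the 6 members at 4 h and 3 at 12 h, where DESeq2 called 4 and 2. Fitted to the 2 groups only, the dose differences of Atp7a at 12 h (-0.96) and Sgk1 at 12 h and 24 h (0.93 and 0.92) were not called, nor was Slc30a7 at 80 µg and 12 h against control (-0.95). No member changed direction while called. The cause of these shifts was not tested. Counts of 5 or fewer per library limit Mt1 and Mt2 at 0.8 µg and in the control.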
